A study of Mus musculus with 10 samples.

Results

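Angptl4 and 9 further genes that PPAR transcription factors or low nutrient supply are known to regulate were followed through 10 mouse RNA sequencing libraries. The 10 genes, out of 52550 in the count table, were Angptl4, Plin2, Hilpda, Cd36, Cpt1a, Acadvl, Pdk4, Ppara, Ppard and Pparg. They were selected on results of these data, because Angptl4 was among the genes most increased by doxycycline (DOX) in the cells that carry inducible miR-139. For that contrast, and for its difference between the constructs, the values of the 10 genes are therefore a description with no test. The question was whether the higher Angptl4 level was accompanied by other genes of a PPAR, fasting or hypoxia response.

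The cells were hematopoietic stem and progenitor cells (HSPCs) enriched from the bone marrow of C57BL/6 mice and transformed with a retrovirus carrying the MLL-AF9 fusion oncogene. In MLL-AF9-i139 cells DOX induced miR-139, and 3 clones were each sequenced with and without DOX. These cells also carried tetR-KRAB, a repressor that DOX releases from its promoter, which the study does not state for the MLL-AF9-ieGFP control cells. Clones 1 and 2 received 5 µg/mL DOX for 48 h, and clone 3 received DOX for 72 h, so clone and time cannot be told apart. The culture time of the untreated i139 libraries is not given, so within a clone DOX and a difference of culture time cannot be told apart. In MLL-AF9-ieGFP cells, which came from 1 clone, DOX induced eGFP, and libraries with and without DOX were made at 48 h and at 72 h. The 2 libraries of each ieGFP group were thus cultures of the same clone, and their spread covers no difference between clones. The growth medium of all cells contained the cytokines SCF, GM-CSF, IL-6 and IL-3.

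PPARα, PPARδ and PPARγ, encoded by Ppara, Ppard and Pparg, are nuclear receptors that bind fatty acids and, paired with an RXR receptor, switch on genes for the uptake, storage and oxidation of fat. Angptl4, a secreted inhibitor of lipoprotein lipase, is a classical PPAR target that is also known to be induced by fasting, glucocorticoids and hypoxia. Myeloid leukemia cells use fatty acid oxidation alongside glycolysis. Genes that respond to these signals were therefore listed by signal and are described separately.

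The total count per library lay between 35133308 and 47089725, and the 10 most abundant genes held 12.6% to 16.9% of the counts. Mir139 was listed at 0 in all 10 libraries and its host gene Pde2a at 0 or 1, so the table did not check the induction itself. Myeloid progenitor markers were present: 10 of 11 had at least 10 counts in all, and the exception, Itgam, lies over 99.9% of its body inside another annotated gene. The adipocyte genes Adipoq, Lep and Fabp4, the hepatocyte genes Alb, Apoa1, Ttr and Serpina1a, and the endothelial genes Cdh5, Kdr and Gpihbp1 were each under 10 counts. The remaining markers did reach 10 counts: 3 of 6 for adipocytes, 1 of 5 for hepatocytes and 2 of 5 for endothelium. In the same order, the summed level of each marker list was at most 1.20, 1.09 and 38.9 CPM in any library. Clone 3 with DOX stood apart from the other libraries with DOX: counts differed from clones 1 and 2 by a chi-square per degree of freedom of 112 and 96.9, against 24.8 between clones 1 and 2. Values are therefore given by clone throughout.

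The agent induced in the i139 cells was miR-139, which lies on chromosome 7. Both mature arms are printed 5′ to 3′ as in RefSeq (GRCm38.p6), because their seeds decide which transcripts the induced RNA can pair with. The 5p arm is at chr7:101475382-101475403 and the 3p arm at chr7:101475418-101475439, both on the plus strand, and capitals mark the seed, bases 2 to 8.
mmu-miR-139-5p: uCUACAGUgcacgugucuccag
mmu-miR-139-3p: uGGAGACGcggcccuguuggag
The 7 bases that pair with the 5p seed, ACTGTAG, occurred once in the longest annotated 3′ UTR of Angptl4, which has 1637 bases, and in that of none of the other 9 genes. This site is found in 11.4% of 21193 genes with a 3′ UTR. The counterpart of the 3p seed, CGTCTCC, found in 3.59% of genes, occurred in none of the 10. A match is a description of the sequence and not a measured site, and the transcript that held it was higher with DOX, as given next.

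Angptl4 (ENSMUSG00000002289) is at chr17:33773750-33781830 on the minus strand of GRCm38 and overlaps no other gene. Values are CPM, the counts of a gene divided by the library total and set to a common scale, with TMM factors between libraries. Without DOX the i139 clones 1, 2 and 3 had 19.9, 18.2 and 21.9 CPM of Angptl4. With DOX they had 261, 252 and 97.1 CPM. Every library with DOX was thus above every library without, clones 1 and 2 lay close together, and clone 3 reached less than either. The differences within a clone were 3.71, 3.78 and 2.15 on the log2 scale (log2 CPM after adding a prior count of 2), or 13.1-fold, 13.8-fold and 4.43-fold. The fitted log2 fold change was 3.36 with a standard error of 0.36 over the 6 libraries, and 3.77 without clone 3. Of the 19223 genes tested, the groups did not overlap and were higher with DOX in 12% and lower in 12.8%, and Angptl4 was the 1 of the 10 genes that did not overlap.

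**Figure D1:**
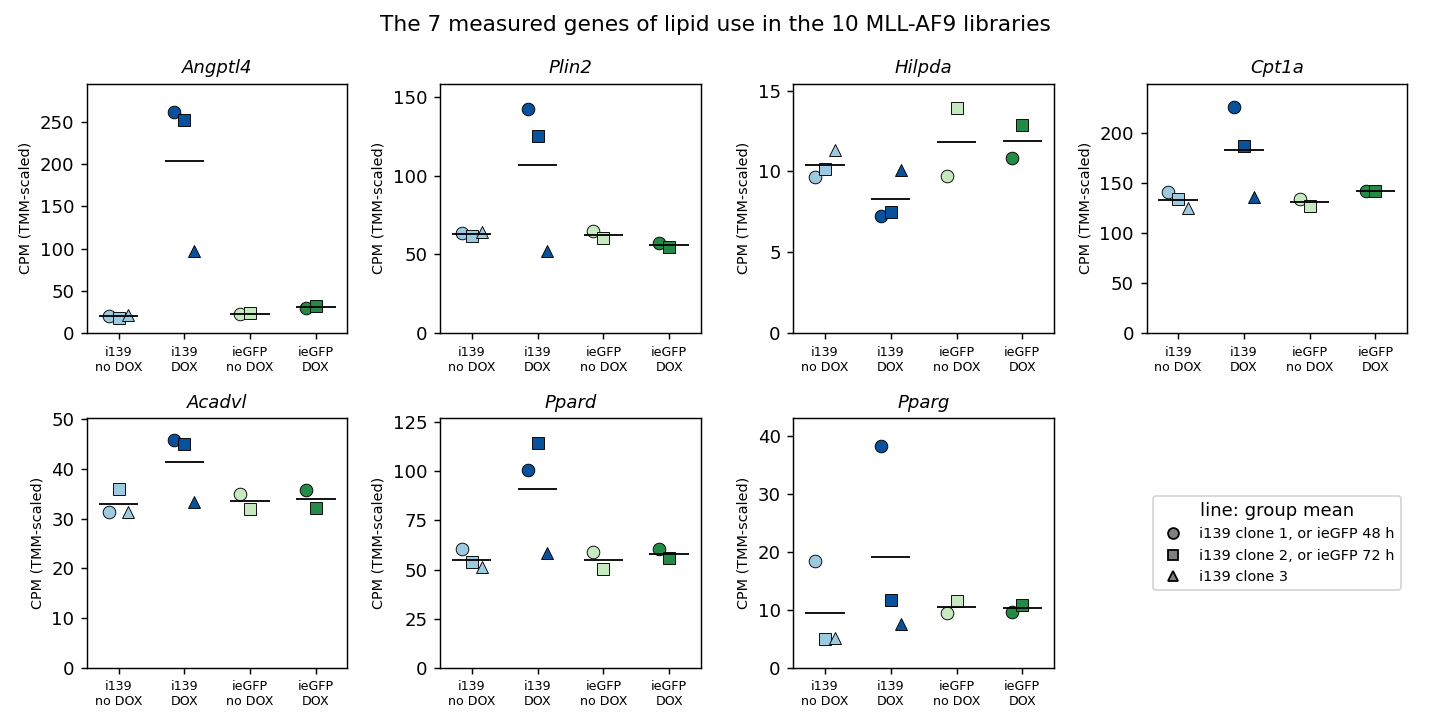
CPM (TMM-scaled, linear axis from 0) of the 7 genes with steady counts, 1 panel a gene, in the 4 groups of libraries, with a point for each library and a line at the group mean. Angptl4 stands at 97.1 to 261 CPM in the 3 i139 libraries with DOX and at 18.2 to 32.5 CPM in the other 7, while for the other 6 genes clone 3 with DOX (dark triangle) lies near the untreated libraries.

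In the ieGFP cells, whose DOX contrast was not used to choose the genes, Angptl4 was at 22.1 CPM (48 h) and 24.1 CPM (72 h) without DOX and at 29.6 and 32.5 CPM with it. Both pairs moved the same way by a similar amount, 0.42 and 0.43 on the log2 scale. The fitted log2 fold change of 0.43 (SE 0.35) did not pass edgeR's quasi-likelihood test (unadjusted p = 0.25, Benjamini-Hochberg adjusted p = 1). This fit used all 10 libraries with a shared estimate of the spread, so differences between the i139 clones enter its SE and p. Here and for the genes below, they do not measure the spread of the ieGFP cultures alone. Of all 20269 genes tested in the ieGFP cells, 0 (0%) were called by edgeR, 259 had an unadjusted p under 0.05, and DESeq2 called 1. Of the 10 genes 9 could be tested there, 0 were called by edgeR or DESeq2, and 0 had an unadjusted p under 0.05. The difference of the Angptl4 response between the constructs was 2.92 on the log2 scale (SE 0.46), given without a test. In that interaction 0.00493% of all genes were called without the clone block and 0.187% with it.

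Without DOX Angptl4 differed between i139 and ieGFP by -0.21 on the log2 scale (SE 0.32, adjusted p = 1, edgeR). None of the 9 tested genes was called (0 with an unadjusted p under 0.05, 0 by DESeq2), beside 0.0444% of all genes. The ieGFP library of 72 h differed from that of 48 h in Angptl4 by 0.13 without DOX and by 0.14 with DOX on the log2 scale, values without replicates.

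The PPAR receptors themselves differed widely in level. Ppara was near absence, with 14 counts over the 10 libraries and at most 4 in any of them, which was too few to test in the i139 libraries. Ppard, the widely expressed receptor of fatty acid oxidation, had 60.5, 53.7 and 51.1 CPM in clones 1, 2 and 3 without DOX and 101, 114 and 58.4 CPM with it. It was thus higher within each clone, by 0.74, 1.09 and 0.19 on the log2 scale, but clone 3 with DOX did not exceed clone 1 without it. Its ieGFP libraries lay between 50.4 and 60.5 CPM, with a fitted ieGFP log2 fold change of 0.09 (SE 0.24, adjusted p = 1, edgeR).

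Pparg, the receptor of fat storage and of macrophage lipid handling, separated the clones more than the treatment. Without DOX it had 18.4 CPM in clone 1 but 5.0 and 5.1 CPM in clones 2 and 3. With DOX the same clones had 38.2, 11.7 and 7.6 CPM. Each clone was higher with DOX, by 1.05, 1.23 and 0.57 on the log2 scale, while the groups overlapped because clone 1 lay above the others in both. Taking the clone into account lowered the standard error of its log2 fold change from 0.69 (1.03) to 0.15 (0.98). The ieGFP libraries had 9.4 to 11.6 CPM with no shift (log2 fold change -0.03, SE 0.74, adjusted p = 1, edgeR). With the block that SE was 0.16. The annotated gene Gm44079 covers 10.2% of the Pparg body on the other strand, and reads there may not be counted.

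Promoter windows of RefSeq (GRCm38.p6, from 250 bases before to 50 after each start) exist for 9 of the 10 genes, in 12 windows, and Angptl4 has no entry. They were searched on both strands for AGGTCA, the half-site of nuclear receptors, for its direct repeat with 1 base between, AGGTCANAGGTCA, which PPAR and RXR bind, for ACGTG, the core of the hypoxia response element, and for GTAAACA, bound by FOXO factors. The windows of Ppard, of the first Pparg start and of Plin2 are shown up to 20 bases past the start, since these were the genes next to Angptl4 in the size of their difference. They are at chr17:28232504-28232773 (plus strand), chr6:115360894-115361163 (plus strand) and chr4:86670040-86670309 (minus strand), 5′ to 3′ along the gene, with AGGTCA and ACGTG matches on either strand in capitals.
Ppard: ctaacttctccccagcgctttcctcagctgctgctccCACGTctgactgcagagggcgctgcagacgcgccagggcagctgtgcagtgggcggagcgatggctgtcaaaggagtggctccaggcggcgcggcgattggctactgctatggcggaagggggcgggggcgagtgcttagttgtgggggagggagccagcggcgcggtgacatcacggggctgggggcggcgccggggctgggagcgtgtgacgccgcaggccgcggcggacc
Pparg: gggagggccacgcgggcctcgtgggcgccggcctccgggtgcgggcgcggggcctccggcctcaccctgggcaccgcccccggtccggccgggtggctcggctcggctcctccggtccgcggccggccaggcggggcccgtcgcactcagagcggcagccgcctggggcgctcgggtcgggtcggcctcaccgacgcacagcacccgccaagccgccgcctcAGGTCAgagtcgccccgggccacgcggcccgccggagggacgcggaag
Plin2: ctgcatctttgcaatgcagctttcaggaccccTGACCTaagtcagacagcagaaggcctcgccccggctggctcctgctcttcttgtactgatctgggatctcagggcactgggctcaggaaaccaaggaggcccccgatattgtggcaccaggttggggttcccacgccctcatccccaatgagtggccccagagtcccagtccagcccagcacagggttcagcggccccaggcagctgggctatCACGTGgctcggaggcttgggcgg
In Plin2 an ACGTG match on each strand overlaps in the run CACGTG at the start site, and an AGGTCA match lies on the opposite strand 218 bases before it. Pparg holds AGGTCA 28 bases before the start, and Ppard holds 1 ACGTG 213 bases before it. Over the 12 windows AGGTCA was found in 6, against 16.3% of 32817 windows in all, and ACGTG in 4, against 19.6%. By gene, AGGTCA was found in 5 and ACGTG in 4 of the 9. Pparg and Hilpda have more than 1 window each, so the windows are not independent. These genes were picked as known responders, and the shares are a description with no test. GTAAACA (3.65% of all windows) and the direct repeat (0.0396%) were found in 0 of the 12. These windows hold no distant elements, so the absence of a motif says only that these letters are not in these bases.

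Lipid droplet genes split. Plin2, the coat protein of lipid droplets and a PPAR target, had 63.3, 61.7 and 64.3 CPM in clones 1, 2 and 3 without DOX. With DOX it had 142 and 125 CPM in clones 1 and 2 but 52.2 CPM in clone 3, below every untreated library. The log2 differences were 1.17, 1.02 and -0.30, and the fitted log2 fold change of 0.77 (SE 0.31) was 1.12 without clone 3. The ieGFP libraries were also a little lower with DOX, at 57.3 and 55.0 CPM against 65.0 and 60.3 CPM (log2 fold change -0.16, SE 0.33, adjusted p = 1, edgeR).

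Hilpda, an inhibitor of the lipase Pnpla2 at the droplet that is induced by hypoxia, was the 1 gene of the 8 tested in i139 that was lower with DOX in all 3 clones. It had 9.63, 10.1 and 11.4 CPM without and 7.23, 7.48 and 10.1 CPM with DOX, so clones 1 and 2 lay below the untreated range and clone 3 inside it. The fitted log2 fold change was -0.32 (SE 0.18). In the ieGFP cells it had 9.71 and 14.0 CPM without and 10.8 and 12.9 CPM with DOX, with no common direction. Cd36, a fatty acid transporter, had 33 counts in all and at most 6 in a library, so no difference was detectable at this depth.

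Among the genes of mitochondrial fat oxidation, Cpt1a, the rate-limiting carnitine transferase that admits fatty acids into mitochondria, had 142, 134 and 125 CPM without DOX and 226, 187 and 137 CPM with it. The order of the clones was the same in both groups, and clone 3 with DOX lay inside the untreated range. The fitted log2 fold change was 0.47 (SE 0.17), with 0.67, 0.48 and 0.13 in the 3 clones, and 0.12 (SE 0.18, adjusted p = 1, edgeR) in the ieGFP cells. Acadvl, which opens the oxidation of very long chains, had 31.4, 35.9 and 31.3 CPM without and 45.7, 45 and 33.3 CPM with DOX, a fitted log2 fold change of 0.34 (SE 0.15). Over the 4 ieGFP libraries it was between 32.0 and 35.7 CPM. Since 40.5% of its body is shared with Dvl2 and Mir324 on the other strand, its level may be understated.

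Pdk4, which closes the pyruvate dehydrogenase complex when fat is burned and is among the strongest PPAR and fasting responders known, was not measured: it had 0 counts in each of the 10 libraries. It overlaps no annotated gene. The limit that a count of 0 allows, 3 counts, corresponds to 0.0637 to 0.0854 CPM per library before TMM scaling and covers counting error only. In the same clones with DOX Angptl4 stood at 97.1 CPM or more.

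**Figure D2:**
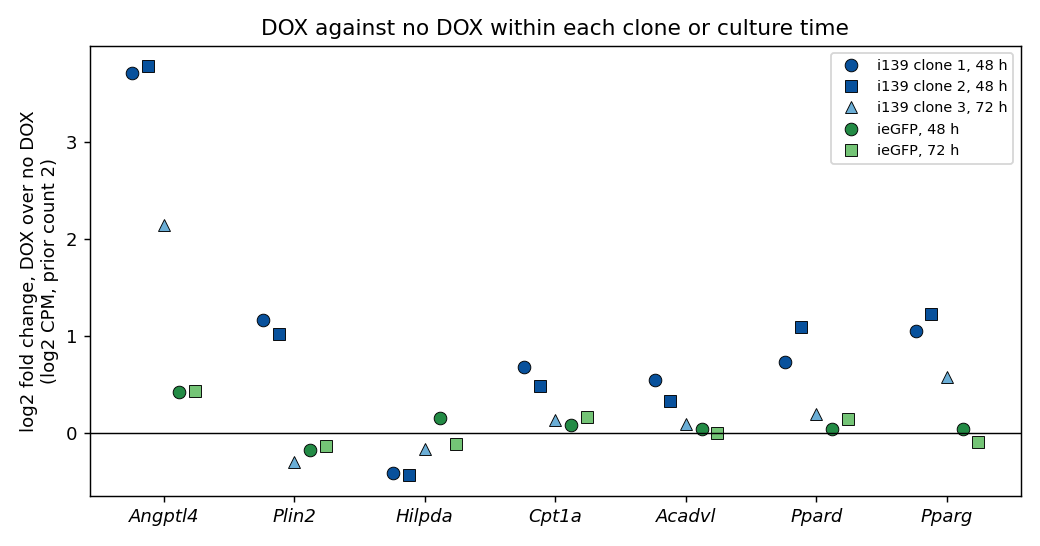
Difference of log2 CPM (prior count 2) between the library with and without DOX in each i139 clone and at each ieGFP time, for 7 genes, 1 point a pair. Angptl4 lies between 2.15 and 3.78 in the i139 clones and at 0.42 and 0.43 in the ieGFP cells, Plin2 changes sign in clone 3, and Hilpda is below 0 in all 3 clones.

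Of the 10 genes, 8 could be tested in the 6 i139 libraries. Angptl4 was the 1 called without a block, beside 0.0624% of 19223 genes. With the clone as a block Angptl4, Ppard and Pparg were called, beside 12.4% of all genes. Both counts come from the contrast that chose the genes, and nothing is read from them. The median log2 fold change of the 8 was 0.67, beside 0.01 over all genes tested, and by clone their median difference was 0.71, 0.75 and 0.16.

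Levels of different genes were compared per kb of exon and per kb of gene body, since the sources used here do not say whether intron reads were counted. Per kb of exon, the median over the 5 untreated libraries was 18.0 CPM per kb for Plin2 (range 17.2 to 18.5), 17.5 for Cpt1a (16.3 to 18.5), 11.9 for Acadvl, 9.20 for Hilpda, 7.15 for Ppard, 6.18 for Angptl4 (5.15 to 6.82) and 3.18 for Pparg (1.69 to 6.22). Cd36 and Ppara followed at 0.0191 and 0.0114 CPM per kb, and Pdk4 was at 0. The ranges of neighbours overlapped for Plin2 and Cpt1a, for Acadvl and Hilpda, for Ppard and Angptl4, for Angptl4 and Pparg, and for Cd36 and Ppara. Cpt1a was above Acadvl, Hilpda above Ppard and Pparg above Cd36 in all of these libraries. Per kb of gene body the order was another, with medians of 6.13 CPM per kb for Acadvl, 3.43 for Hilpda, 2.92 for Plin2, 2.71 for Angptl4, 2.11 for Cpt1a, 0.781 for Ppard and 0.0726 for Pparg. With DOX in i139 Angptl4 had the highest mean of the 10 genes on both scales. It had 57.5 CPM per kb of exon, before Plin2 at 30.4 and Cpt1a at 24.0, and 25.2 CPM per kb of gene body, before Acadvl at 7.91 and Plin2 at 4.92.

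The genes whose log2 CPM followed Angptl4 most closely over the 10 libraries were Slc29a3 (Pearson r 0.997), a lysosomal nucleoside transporter, Wdfy1 (0.993), D1Ertd622e (0.988), Commd3 (0.987) and Lrp12 (0.986), among 10660 genes with a symbol and a mean log2 CPM of at least 1. The libraries share clones and treatment, so these values are a description. Slc29a3 differed by 2.10, 1.93 and 1.26 on the log2 scale in clones 1, 2 and 3 and by 0.23 and 0.19 in the ieGFP cells at 48 h and 72 h. None of the 5 belongs to the 10 genes.

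Around Angptl4, 8 lists of 156 other genes of lipase control, PPAR signalling, lipid droplets, the pyruvate switch, fasting, glucocorticoids and hypoxia were examined, of which 128 genes could be tested. Not measured means under 10 counts in the 6 i139 libraries together. Without a block 0 of the 128 were called by edgeR, beside 12 of all 19223 genes, and the lowest adjusted p was 0.0882 (Foxo3). An unadjusted p under 0.05 was found for 40 of the 128, beside 3959 of the 19223. With the clone block 20 were called higher (15.6%) and 5 lower (3.91%), beside 7.05% higher and 5.33% lower among all genes. DESeq2 without a block called 19 of the 128, beside 1556 of the 19223. In the fit without a block, leaving out clone 3 gave 42 calls among the list genes, beside 3981 of all 18359 genes. Leaving out clone 1 or clone 2 gave 0 among the list genes, beside 1 and 0 of all genes. The 25 calls with the block were not refitted with a clone left out. None of them was called in the ieGFP cells without the block (0 by edgeR or DESeq2, 0 with an unadjusted p under 0.05). With the block 0 were called there, and 1, Pnpla2, had an unadjusted p under 0.05. Adjusted p-values below are edgeR's with the clone as a block. The shares of a list stand beside 7.05% and 5.33% as a description, and their difference was not tested. Of the 19223 genes behind those shares, 13504 had at least 10 counts in every i139 library. The lists were also chosen with earlier results of these data known. Beside the genes chosen by rule, Lpl, Lipg, Lmf1, Acadm, Acadl, Fkbp5, Tsc22d3, Vegfa, Slc2a1, Pdk1, Bnip3, Gpi1, P4ha1, Bhlhe40 and the genes not measured were picked as examples after their values were seen.

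Genes of lipase control ranged from near absence to high levels. Lpl, the lipase that Angptl4 inhibits, was at most 0.431 CPM in any library, and Gpihbp1, which anchors it on endothelium, was not measured. Lipg, the endothelial lipase, was at 313 to 382 CPM and Lmf1, which folds lipases, at 46.7 to 52.4 CPM in the untreated i139 clones. Of 8 tested genes in this list 1 was called higher (12.5%), and 5 of the 6 not tested lie inside other genes. Furin, a protease that cleaves Angptl4 and many other precursors, rose from 92.9, 111 and 96.7 CPM to 181, 207 and 119 CPM (log2 fold change 0.74, SE 0.14, adjusted p = 0.0281).

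Of 12 tested PPAR partners and cofactors 2 rose (16.7%) and 0 fell (median log2 fold change 0.20). Ncoa1, a coactivator, had a log2 fold change of 0.43 (SE 0.08, adjusted p = 0.0296), and Rxrb, the RXR partner with which PPARs pair, 0.36 (SE 0.09, adjusted p = 0.0467). Ppargc1b, a coactivator of mitochondrial biogenesis and fat oxidation, went from 58.0 and 58.7 CPM to 12.8 and 16.9 CPM in clones 1 and 2 and from 76.9 to 76.1 CPM in clone 3. This gene did not pass the test (adjusted p = 0.0642) and was singled out after its values were seen.

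Among 27 tested PPAR targets of fatty acid use, 2 rose (7.41%) and 1 fell (3.70%), shares near those of all genes, with a median log2 fold change of 0.09. Slc27a1, a fatty acid transport protein, was 1 of those that rose (log2 fold change 0.72, SE 0.15, adjusted p = 0.0305). Acsl3, which activates fatty acids for storage in droplets, fell by 0.69 on the log2 scale (adjusted p = 0.0332). The medium- and long-chain dehydrogenases next to Acadvl did not pass: Acadm had a log2 fold change of -0.06 and Acadl of 0.15 (adjusted p = 0.727 and 0.288). Fabp4, Vnn1, Cyp4a10, Cyp4a14 and Fgf21, which PPARs drive in fat or liver, were not measured.

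At the lipid droplet 2 of 14 tested genes rose (14.3%) and 0 fell. Plin3, a further coat protein, had a log2 fold change of 0.58 (adjusted p = 0.0469), with 60.4 CPM in clone 3 with DOX inside its untreated range of 52.9 to 68.7 CPM. Pnpla2, the lipase that opens droplets and that Hilpda inhibits, had a log2 fold change of 0.35 (adjusted p = 0.0404), with 0.40, 0.35 and 0.27 in the clones and 0.18 and 0.26 in the ieGFP pairs. Its hormone-sensitive counterpart Lipe and its inhibitor G0s2 lie wholly inside other annotated genes and were not measured.

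In the pyruvate dehydrogenase switch, where Pdk4 was missing, 1 of 12 tested genes rose (8.33%) and 2 fell (16.7%). Pdk3, a kinase that closes the complex, had a log2 fold change of 0.38 (adjusted p = 0.0374). Pdp2, the phosphatase that reopens it, fell by 0.72 (adjusted p = 0.0272) and Dlat, its E2 subunit, fell by 0.57 (adjusted p = 0.0235). Pdp2 had 28.1, 31.6 and 24.4 CPM without and 15.8, 15.9 and 18.7 CPM with DOX, so the groups did not overlap.

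Of 14 tested fasting and FOXO targets 3 rose (21.4%) and 0 fell, with a median log2 fold change of 0.33. Foxo3, a transcription factor that is active when insulin and growth factor signals are low, went from 138, 146 and 184 CPM to 321, 309 and 232 CPM (log2 fold change 0.89, SE 0.17, adjusted p = 0.0282). Sesn3, a FOXO target that restrains mTORC1, went from 1.1, 0.4 and 0.5 CPM to 6.1, 2.5 and 1.4 CPM (2.26, adjusted p = 0.0173), and Fbxo32, an atrophy ubiquitin ligase, had a log2 fold change of 1.21 (adjusted p = 0.0332) at 2 CPM or less. The hepatic fasting genes Pck1 and Igfbp1 were not measured.

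Glucocorticoid receptor targets held 1 gene that rose and 1 that fell of 11 tested (9.09% each), 1 gene in either direction beside 7.05% and 5.33% of all genes, with a median log2 fold change of -0.13. Lcn2, a granule protein of neutrophils, rose by 1.72 on the log2 scale (SE 0.22, adjusted p = 0.0173), and Mt1, a metallothionein, fell by 0.66 (SE 0.17, adjusted p = 0.0492). The canonical target Fkbp5 was at 267, 281 and 267 CPM without and 210, 211 and 253 CPM with DOX (log2 fold change -0.27, adjusted p = 0.0913), and Tsc22d3 had -0.12 (adjusted p = 0.346).

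In the list of hypoxia and HIF targets, which also held Vhl, a regulator of HIF, 30 genes were tested. Of these 8 rose (26.7%) and 1 fell (3.33%), with a median log2 fold change of 0.28. The 8 were Bnip3l, Bnip3, Mxi1, Vhl, Gpi1, P4ha1, Bhlhe40 and Ddit4. Bnip3l, a mitophagy receptor, went from 54.5, 52.9 and 48.2 CPM to 96.4, 88.7 and 63.4 CPM (log2 fold change 0.67, SE 0.11, adjusted p = 0.0238), Mxi1, an antagonist of MYC, had 0.65 (adjusted p = 0.0326), and Vhl, which marks HIF for decay, 0.49 (adjusted p = 0.0344). Ddit4, an mTORC1 inhibitor also induced by stress, was named after its values were seen: it went from 17.1, 16.6 and 15.7 CPM to 73.1, 69.3 and 17.7 CPM (1.49, SE 0.37, adjusted p = 0.044). The gene that fell was the hexokinase Hk2, by 0.42 (adjusted p = 0.036). Hilpda, itself a HIF target outside this list, was lower in every clone (fitted log2 fold change -0.32, SE 0.18), a description with no test. Whether a hypoxia response took place was not tested. Vegfa, Slc2a1 and Pdk1, which answer to HIF in most cells, had log2 fold changes of 0.21, 0.28 and -0.25 and did not pass (adjusted p = 0.116, 0.0627 and 0.15). Hif1a lies wholly inside another annotated gene and was not measured.

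**Figure D3:**
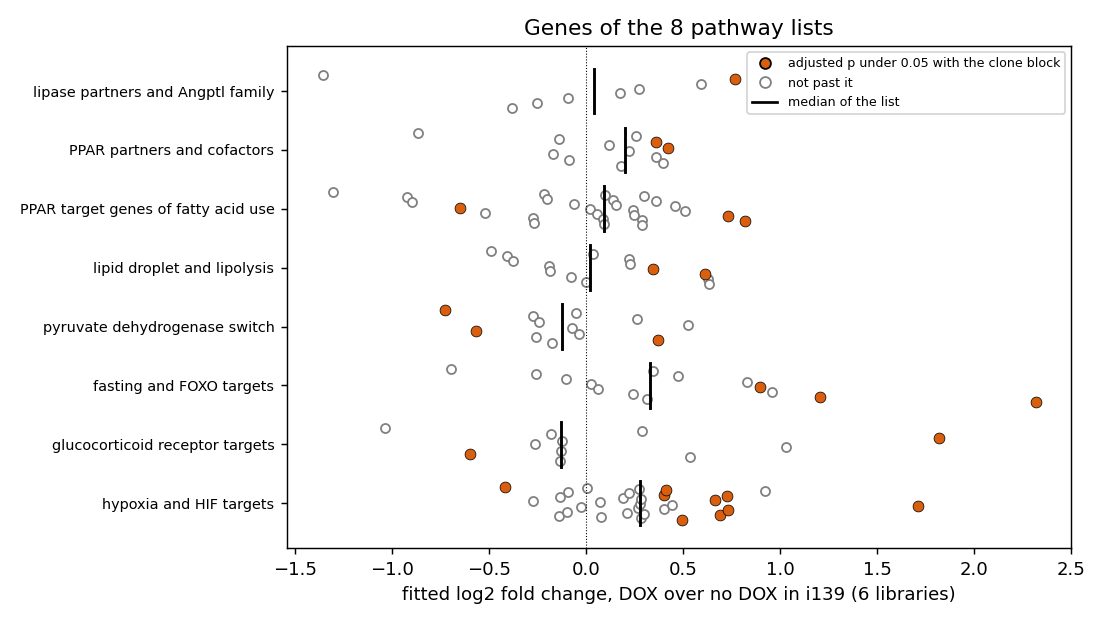
Fitted log2 fold change with DOX (6 i139 libraries, no block) of the 128 tested genes of the 8 lists, 1 point a gene spread vertically for legibility. Filled points passed an adjusted p of 0.05 with the clone as a block, 20 higher and 5 lower, and the black bar marks the median of each list, from -0.13 for glucocorticoid targets to 0.33 for fasting and FOXO targets.

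The ranges of summed marker levels, which were not tested, also differed with DOX in i139, and not for 1 cell type alone. The summed level of 9 macrophage markers was 9.43 to 12.1 CPM in the i139 libraries without DOX, 11.2 to 27.7 CPM with it and 8.39 to 9.97 CPM over the ieGFP libraries. Of these markers 5 had at least 10 counts, while the defining genes C1qa, C1qb, Marco and Siglec1 did not. The sum of 8 neutrophil markers was 130 to 223 CPM without and 193 to 361 CPM with DOX in i139, and 283 to 399 CPM over the ieGFP libraries. The sum of 11 myeloid progenitor markers was 2591 to 3737 CPM without and 3581 to 5526 CPM with DOX in i139, and 2650 to 4008 CPM over the ieGFP libraries. For these macrophage, neutrophil and progenitor sums the i139 ranges with and without DOX overlapped. The hepatocyte and T cell sums were also higher, at 1.09 and 0.689 CPM or less. The erythroid sum reached lower, at 1.91 to 2.43 CPM without and 1.34 to 1.96 CPM with DOX in i139. The adipocyte sum (0.963 to 1.09 CPM without, 0.585 to 1.12 CPM with) and the endothelial sum (22.4 to 29.8 and 21.4 to 38.9 CPM) overlapped. The part of other cells in the difference of Angptl4 was not tested. In bulk RNA, more cells of a type and more RNA per cell cannot be told apart.

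**Figure D4:**
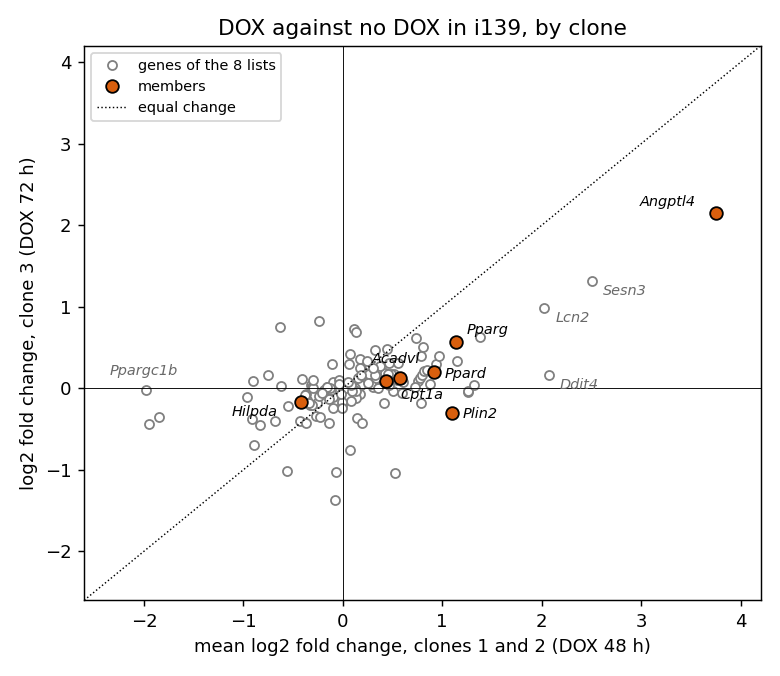
Log2 difference with DOX in clone 3 (72 h, vertical axis) against the mean of clones 1 and 2 (48 h, horizontal axis), 1 point a gene, for 7 of the 10 genes (filled) and the 128 tested list genes (open), with the line of equal change dotted. Angptl4 keeps 2.15 in clone 3, whereas Plin2 lies at -0.30 and Ddit4 and Ppargc1b lie near 0.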

How the data were processed

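RNA of 10 libraries was sequenced after ribosomal depletion. According to the submitters' processing notes, reads were checked with FastQC 0.11.8, mapped to GRCm38 with STAR 2.5.3e and counted per gene with featureCounts 1.6.0, and DESeq2 1.22.2 was used. The values deposited by the authors are raw read counts per gene. The stated removal of rows under 10 counts is not seen in the table, which holds 25799 genes at 0. The 2 deposited tables agree in all values, and 14 columns belonging to other samples were not used. Of 677 protein-coding genes that lie inside another gene and share no exon with it, 664 had 0 counts, so nested genes may have lost their reads. Groups came from the sample titles. Positions and overlaps came from GENCODE M21 on GRCm38, a later release than the authors', and sequences from RefSeq.

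Genes with at least 10 counts in total were tested with edgeR 4.0.16 (quasi-likelihood, TMM, Benjamini-Hochberg adjusted p under 0.05) in R 4.3.3, on the 6 i139 libraries for the DOX effect in i139 and on all 10 for the other contrasts. DESeq2 1.42.0, RLE size factors, other filters, the clone block, a fit of 10 libraries and each library pair left out were alternatives. Libraries of the same clone are paired: their deviations from the group means correlated with r of 0.38, 0.29 and 0.41. Nothing in the labels says that the clones came from separate mice, so p-values measure the spread between these clones. The 10 genes and the lists were chosen with earlier results of these data known. Named were the 10 genes, the genes of each list past the threshold with the block (at most 4 a list, by p), and the 5 genes most correlated with Angptl4. A further gene that met the rule is not reported here. Other genes are named as examples picked on their values, as stated beside them. For DOX in the 6 i139 libraries, edgeR with and without the clone block and DESeq2 were tested on simulated data with known changes. The fits of 10 libraries and the other alternatives were not.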

Additional observations from a re-analysis of the deposited data

Results flagged for a closer look

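3 list genes called with the clone block were flagged because they moved one way in all i139 clones and the opposite way in both ieGFP pairs. Other list genes that were not called, among them Lpl and Med1, also did so. The mean log2 difference over the i139 clones was 2.11 for Sesn3, 1.68 for Lcn2 and -0.67 for Mt1. The ieGFP pairs differed by -0.57 and -0.35, by -0.08 and -0.15, and by 0.23 and 0.20, in the same order of genes. The difference between the constructs was not tested independently of this choice.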

How the results depend on the processing

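The counts of genes called depended strongly on the processing. For DOX in i139 edgeR called 12 genes, RLE size factors gave 8, filterByExpr 6, a minimum of 10 counts in every library 2, a minimum of 1 count in total 562, the fit of all 10 libraries 1234, DESeq2 1556 and the clone as replicate block 2381. Leaving out one clone gave 0 to 3981, the highest without clone 3 and 1 and 0 without clone 1 or 2. In the ieGFP cells the count of 0 became 1 with DESeq2 and with a minimum of 1 count, and stayed at 0 with each library pair left out. For the interaction the count of 1 became 82 with DESeq2, 71 with a minimum of 1 count, 38 with the replicate block, and 0 with filterByExpr and with 10 counts in every library. It ranged from 0 to 2011 over the left-out clones and times, the highest without clone 3. Without DOX the 9 genes that differed between i139 and ieGFP became 45 with DESeq2, 37 with a minimum of 1 count and 4 with 10 counts in every library, and ranged from 0 to 30 with a clone or time left out. Of the list genes 0 were called by the unblocked edgeR fit, 19 by DESeq2, 9 with a minimum of 1 count, 25 with the replicate block, 13 with all 10 libraries and 0 to 42 with a clone left out. The causes of these differences were not tested.

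The log2 fold change of Angptl4 with DOX in i139 lay between 3.12 and 3.77 over all alternatives, and no value of the 10 genes in i139 moved by more than the spread between clones except Cd36 in clone 3, which became 2.87 with a prior count of 0.5. In the ieGFP cells the sign turned for values near 0: Hilpda became -0.0021 with DESeq2, -0.0032 with RLE size factors, -0.0051 with 10 counts in every library, and ranged from -0.1289 to 0.1632 with a library pair left out. Under the same omissions Acadvl ranged from -0.0129 to 0.0396, Pparg from -0.1113 to 0.0443 and Ppara, with 0 to 4 counts a library, from -0.7139 to 4.8114. None of these passed a test. Depth limited Ppara, Cd36 and Pdk4, and the counting of overlapping genes limited Acadvl, Hif1a, Lipe and G0s2.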
